A study of Rattus norvegicus with 12 samples.

Results

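Chemokines are small secreted or membrane-tethered proteins that direct the migration of leukocytes and other cells through receptors with 7 membrane-spanning helices. They are named by the spacing of their first cysteines (CC, CXC and CX3C), and most signal through receptors coupled to Gi proteins. In the heart, chemokines of resident and muscle cells are known for drawing monocytes and neutrophils into injured tissue, and the ligand Cxcl12 with its receptors guides vessel growth. The group described here holds 10 genes. It comprises the CC ligands Ccl2 and Ccl7, the CXC ligands Cxcl1, Cxcl2, Cxcl10 and Cxcl12, the receptors Cxcr4 and Ackr3, and the CX3C pair Cx3cl1 and Cx3cr1. Each had 1 probe set that carried its symbol alone, so all 10 were measured, among 14324 genes in all. The 10 genes were chosen from results already seen on these arrays, including the values at 50 µg/ml, so their own values are a description without a test. Another 48 chemokine ligands and receptors were listed by family name, of which 43 were measured and tested, and the rest were not analysed here.

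The cultures were neonatal heart muscle cells from Sprague-Dawley rat pups 2 days old. The submitters state that every culture came from a single litter and call the arrays of a group biological replicates, so the spread between arrays is that between cultures of 1 litter. After 3 days in culture the cells received the vehicle, dilute dimethyl sulphoxide, or di(2-ethylhexyl) phthalate (DEHP, a plasticiser) at 1, 10 or 50 µg/ml in that vehicle for a further 3 days. Each of the 4 groups had 3 Affymetrix arrays.

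All values are on the log2 scale. Each deposited value is a ratio, that of an array to the middle value of its probe set across the series of 12, so a log2 ratio of 0 is the middle of the series and says nothing about how strongly a gene was expressed. Levels cannot be set against each other between genes, and whether a probe set lay above background is unknown. No source used here records the direction of the ratio. It was read as array over median, and turned round it would reverse each sign below. Array medians ran from ratios of 0.994 to 1.01. Replicate 2 at 10 µg/ml stood apart, with a log2 SD over probe sets of 0.17 against 0.0967 and 0.0881 in the other arrays of its group. Cell type markers moved as well, and their counts at 50 µg/ml stand beside 8.75% of all genes higher and 8.84% lower under limma (adjusted p under 0.05). Of 18 macrophage markers 16 were lower and 0 higher at 50 µg/ml (median difference -1.10). Of 14 cardiomyocyte markers 9 were higher and 1 was lower (0.18), of 10 endothelial markers 5 and 1 (0.25), and of 6 epicardial markers 4 and 0 (0.37). Of 11 fibroblast markers 0 were higher and 2 lower (-0.03), of 8 smooth muscle and pericyte markers 3 and 4 (-0.16), and of 10 lymphocyte and neutrophil markers 0 and 1 (0.02). The marker lists hold no absolute level, so it is unknown whether any defining marker was at or near background.

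At 50 µg/ml, 6 of the 10 genes were higher than in the vehicle and past the limma threshold (adjusted p under 0.05 over all genes), where 8.75% of all genes were higher. One, Cx3cr1, was lower, where 8.84% of all genes were. The median difference of the 10 genes was 0.46, beside 0.02 over all genes. At 1 µg/ml 0 were higher and 3 lower, where 2.51% and 1.74% of all genes were, and the median difference was -0.11, beside 0.00 over all genes. At 10 µg/ml 0 of the 10 and 0 of all 14324 genes passed in either direction under limma. At an unadjusted p under 0.05, 2 of the 10 and 6.28% of all genes did at that dose. Without the array that stood apart, the 10 µg/ml differences were -0.24 for Ccl2, -0.23 for Ccl7, -0.18 for Cxcl1, -0.09 for Cxcl2, -0.03 for Cxcl10, 0.03 for Cxcl12, -0.17 for Cxcr4, -0.08 for Ackr3 and 0.06 for Cx3cl1, and 0 of all genes passed. These counts are given beside the background because the genes were chosen with the same arrays in view, and nothing is read from them. The same holds below wherever a gene of the 10 is said to pass or miss the threshold. The plot of the 10 genes by array shows that they did not share 1 dose pattern. Ccl2 and Ccl7 were low at 1 µg/ml and high at 50 µg/ml, and Cxcl1, Cxcl10, Ackr3 and Cx3cl1 were highest at 50 µg/ml. Cxcr4 was lowest at 1 µg/ml, Cx3cr1 was low at 10 and 50 µg/ml, and Cxcl2 and Cxcl12 kept within a narrow band.

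**Figure D1:**
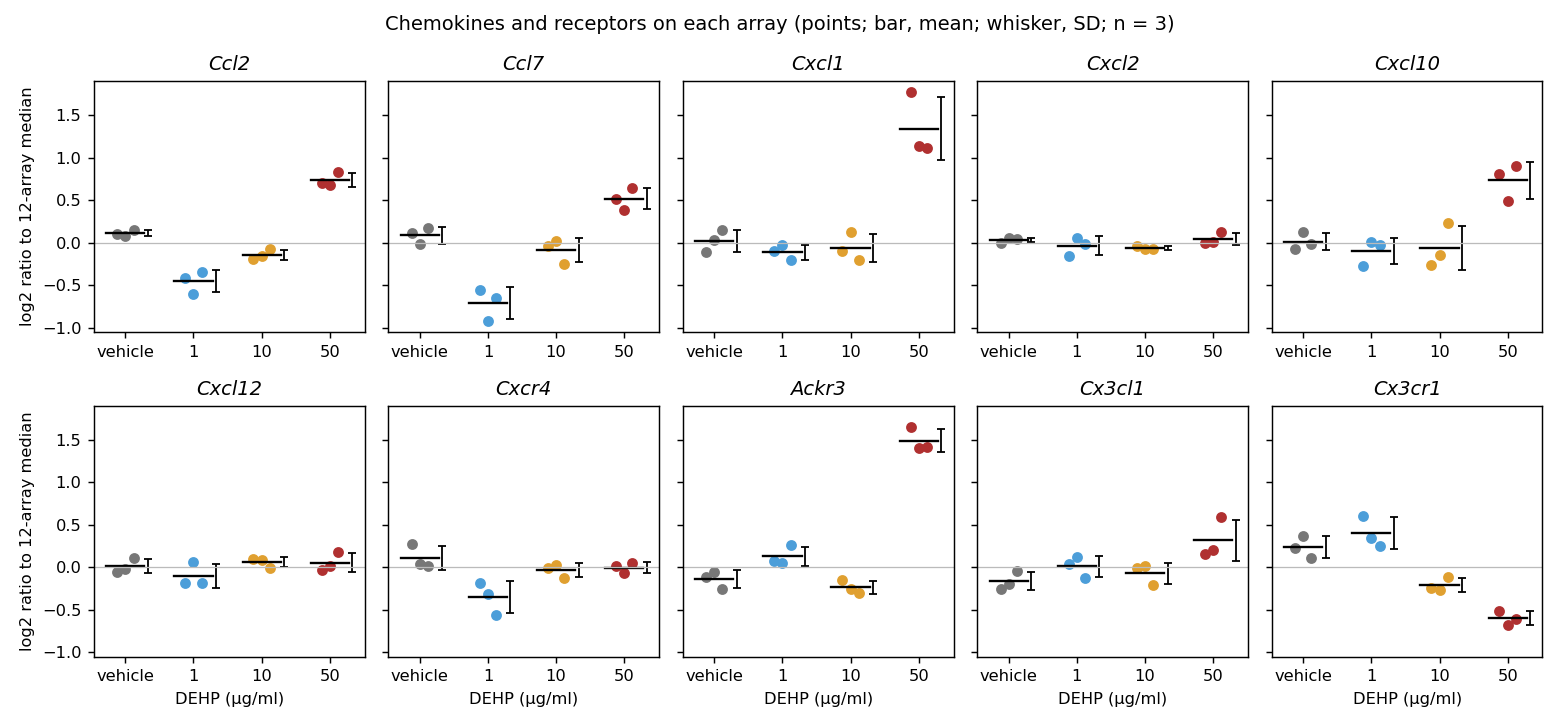
Log2 ratio to the median of the 12 arrays (vertical axis) for each of the 10 genes on each array, by DEHP dose in µg/ml (horizontal axis); points are arrays, bars are means and whiskers are SDs of 3 arrays. The 3 arrays at 50 µg/ml lie above all others for Ccl2, Ccl7, Cxcl1, Cxcl10, Ackr3 and Cx3cl1 and below all others for Cx3cr1. Ccl2, Ccl7 and Cxcr4 have their lowest 3 arrays at 1 µg/ml.

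Ccl2 and Ccl7 encode monocyte chemoattractants that signal through the receptor Ccr2, and their genes lie next to each other on chromosome 10. Ccl2 had log2 ratios of 0.10, 0.08 and 0.15 in the vehicle, -0.42, -0.60 and -0.34 at 1 µg/ml, -0.19, -0.16 and -0.08 at 10 µg/ml and 0.70, 0.68 and 0.83 at 50 µg/ml. The 4 groups did not overlap for Ccl2, and the order from low to high was 1 µg/ml, 10 µg/ml, vehicle and 50 µg/ml. The difference to the vehicle was -0.57 ± 0.07 (SE, n = 3 arrays a group) at 1 µg/ml, -0.25 ± 0.07 at 10 µg/ml and 0.62 ± 0.07 at 50 µg/ml. Ccl2 at 50 µg/ml was thus 1.54-fold the vehicle and 2.28-fold the 1 µg/ml group.

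Ccl7 had log2 ratios of 0.11, -0.02 and 0.17 in the vehicle, -0.56, -0.92 and -0.65 at 1 µg/ml, -0.04, 0.02 and -0.25 at 10 µg/ml and 0.52, 0.39 and 0.64 at 50 µg/ml. Its order over the doses was that of Ccl2, except that the arrays of 10 µg/ml and the vehicle overlapped. Ccl7 differed from the vehicle by -0.80 ± 0.10 at 1 µg/ml, -0.18 ± 0.10 at 10 µg/ml and 0.43 ± 0.10 at 50 µg/ml. When quantile normalization was applied again, the differences at 50 µg/ml were 0.26 for Ccl7, which then missed the threshold, and 0.37 for Ccl2. Endothelial markers were also low at 1 µg/ml and high at 50 µg/ml. The median of the 10 markers lay between -0.28 and -0.16 on the 1 µg/ml arrays and between 0.21 and 0.30 on the 50 µg/ml arrays, against -0.03 to 0.04 on the vehicle arrays. Their part in the Ccl2 and Ccl7 values was not tested. The promoter of Ccl7 (250 bases before to 50 after the start, RefSeq, build GRCr8, chr10:67513845-67514144 on the plus strand) is shown because its neighbour Ccl2 followed the same dose order. No promoter of Ccl2 was matched. Capitals mark an AP-1 motif (TGANTCA) at -73 to -67, an NF-kappaB consensus on the opposite strand at -59 to -50 and a TATA box (TATAAA) at -34 to -29, counted from the start as 1.
Ccl7: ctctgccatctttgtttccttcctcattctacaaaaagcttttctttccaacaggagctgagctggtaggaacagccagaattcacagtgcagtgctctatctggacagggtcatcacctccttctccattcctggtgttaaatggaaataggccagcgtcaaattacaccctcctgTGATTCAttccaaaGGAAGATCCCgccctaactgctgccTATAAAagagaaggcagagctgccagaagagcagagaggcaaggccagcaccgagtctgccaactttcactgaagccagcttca

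Next to this pair lie Ccl11, an attractant of eosinophils, and Ccl12, which in mouse attracts monocytes through Ccr2. Both were among the genes tested. Ccl12 had log2 ratios of 0.42, 0.41 and 0.59 in the vehicle, -0.19, -0.73 and -0.32 at 1 µg/ml, 0.16, -0.02 and 0.14 at 10 µg/ml and 0.02, -0.41 and -0.28 at 50 µg/ml. Every array with DEHP was thus below the vehicle arrays. Ccl12 fell by 0.89 ± 0.13 at 1 µg/ml (limma adjusted p = 0.00473) and fell by 0.70 ± 0.13 at 50 µg/ml (adjusted p = 0.00257). It passed under each alternative processing, with adjusted p of 0.000112 to 0.0258 at 1 µg/ml and 0.000123 to 0.0149 at 50 µg/ml. Ccl11 stood at 0.04 ± 0.05 at 1 µg/ml and 0.07 ± 0.05 at 50 µg/ml and did not pass. The comparisons of 1 and 50 µg/ml share the vehicle arrays.

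**Figure D2:**
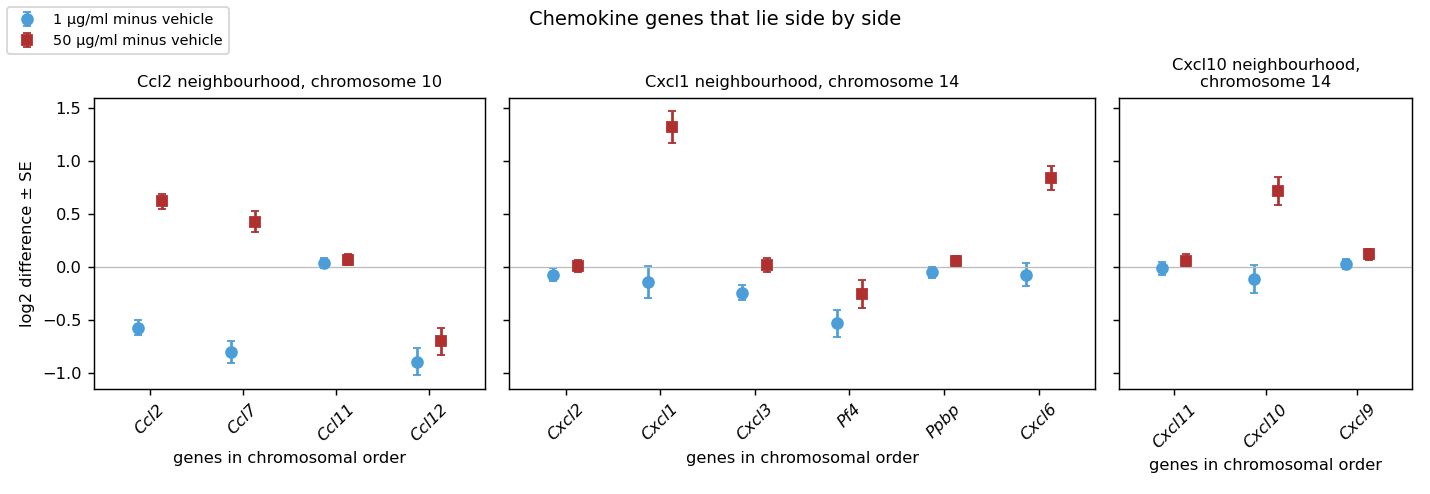
Log2 difference to the vehicle with its SE (vertical axis) at 1 µg/ml (circles) and 50 µg/ml (squares) for measured chemokine genes in chromosomal order (horizontal axis) around Ccl2, Cxcl1 and Cxcl10. At 50 µg/ml Cxcl1 (1.32) and Cxcl6 (0.84) stand above the genes between them, and Ccl12 (-0.70) lies below 0 while Ccl2 (0.62) lies above it.

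Cxcl1 and Cxcl2 encode neutrophil attractants that signal through Cxcr2, and their genes lie next to each other on chromosome 14. Cxcl1 had log2 ratios of -0.11, 0.03 and 0.15 in the vehicle, -0.10, -0.03 and -0.21 at 1 µg/ml, -0.10, 0.12 and -0.21 at 10 µg/ml and 1.77, 1.14 and 1.12 at 50 µg/ml. The 3 lower groups overlapped, and the 50 µg/ml arrays lay apart from all of them, with replicate 1 above the others. The difference of Cxcl1 to the vehicle was -0.14 ± 0.15 at 1 µg/ml, -0.09 ± 0.15 at 10 µg/ml and 1.32 ± 0.15 at 50 µg/ml, where the ratio was 2.49. With quantile normalization applied again it was 0.84 at 50 µg/ml.

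Cxcl2 had log2 ratios of 0.00, 0.05 and 0.04 in the vehicle, -0.16, 0.06 and -0.01 at 1 µg/ml, -0.04, -0.08 and -0.08 at 10 µg/ml and 0.00, 0.01 and 0.13 at 50 µg/ml. Neighbours in the order of its group means overlapped throughout, though the 10 µg/ml arrays lay below those of the vehicle and of 50 µg/ml. Its difference to the vehicle was -0.07 ± 0.06 at 1 µg/ml, -0.09 ± 0.06 at 10 µg/ml and 0.01 ± 0.06 at 50 µg/ml. Whether the Cxcl2 probe set lay above background is unknown.

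The promoters of Cxcl1 (chr14:17479272-17479571 on the minus strand) and Cxcl2 (chr14:17467206-17467505 on the minus strand) are shown side by side because the adjacent genes differed in their response. Capitals mark the NF-kappaB consensus, the motif bound by the transcription factors that mediate much of inflammatory gene induction. It lies at -84 to -74 in Cxcl1 and at -74 to -64 in Cxcl2, where matches overlap on both strands. A global alignment of both windows had 170 identical bases in 324 columns (52.5%), beside 45.7% for Ccl7 and Cxcl1, the next highest pair among the 9 genes with a matched promoter.
Cxcl1: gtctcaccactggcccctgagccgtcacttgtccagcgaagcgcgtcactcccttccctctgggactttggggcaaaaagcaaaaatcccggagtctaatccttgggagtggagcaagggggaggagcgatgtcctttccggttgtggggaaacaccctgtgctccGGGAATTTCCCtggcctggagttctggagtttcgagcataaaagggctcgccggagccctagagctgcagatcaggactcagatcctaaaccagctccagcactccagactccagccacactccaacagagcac
Cxcl2: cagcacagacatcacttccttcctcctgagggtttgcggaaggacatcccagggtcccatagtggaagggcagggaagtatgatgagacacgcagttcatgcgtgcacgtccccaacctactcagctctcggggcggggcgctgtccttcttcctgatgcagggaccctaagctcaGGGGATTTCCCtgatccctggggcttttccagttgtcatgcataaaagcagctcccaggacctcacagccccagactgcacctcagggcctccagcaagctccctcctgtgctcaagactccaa

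Beyond Cxcl1 on chromosome 14 lie Cxcl3, Pf4, Ppbp and Cxcl6, all tested. Cxcl6, a further neutrophil attractant, had log2 ratios of 0.90, 0.60 and 0.99 at 50 µg/ml, against -0.16, 0.23 and -0.08 in the vehicle. The groups did not overlap, and Cxcl6 rose by 0.84 ± 0.11 (limma adjusted p = 0.000187). It passed under each alternative, with adjusted p of 2.78e-06 to 0.00319. Cxcl3 (0.02 ± 0.07), the platelet basic protein gene Ppbp (0.06 ± 0.05) and the platelet factor gene Pf4 (-0.25 ± 0.13) did not pass at 50 µg/ml, and neither did the gene of the Cxcl1 receptor, Cxcr2 (0.01 ± 0.05), which was chosen for naming after its value was seen.

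Cxcl10 encodes an interferon-inducible attractant of T cells that signals through Cxcr3. Its log2 ratios were -0.07, 0.12 and -0.01 in the vehicle, -0.28, 0.01 and -0.03 at 1 µg/ml, -0.26, -0.15 and 0.23 at 10 µg/ml and 0.81, 0.49 and 0.90 at 50 µg/ml. Only the 50 µg/ml arrays lay apart, and the other 3 groups overlapped. The difference to the vehicle was -0.11 ± 0.13 at 1 µg/ml, -0.07 ± 0.13 at 10 µg/ml and 0.72 ± 0.13 at 50 µg/ml. With quantile normalization applied again it was 0.48 at 50 µg/ml. Its neighbours Cxcl9 and Cxcl11, which share the receptor Cxcr3, stood at 0.12 ± 0.05 and 0.06 ± 0.06 at 50 µg/ml and did not pass (limma adjusted p = 0.107 and 0.621). The receptor gene Cxcr3, also named after its value was seen, stood at 0.05 ± 0.08.

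The promoter of Cxcl10 (chr14:15988816-15989115 on the plus strand) is shown because it held the most kinds of motif searched. Capitals mark the core of an interferon response element (GAAANNGAAA) at -243 to -234, NF-kappaB consensus matches at -187 to -178 and -128 to -118, TATAAA at -162 to -157 and TGANTCA at -96 to -90.
Cxcl10: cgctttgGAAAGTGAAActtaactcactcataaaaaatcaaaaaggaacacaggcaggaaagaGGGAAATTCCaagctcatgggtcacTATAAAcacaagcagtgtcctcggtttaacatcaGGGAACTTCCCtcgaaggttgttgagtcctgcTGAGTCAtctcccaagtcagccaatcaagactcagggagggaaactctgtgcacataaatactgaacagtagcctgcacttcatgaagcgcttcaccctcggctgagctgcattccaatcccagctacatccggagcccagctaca

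Over both strands, the NF-kappaB consensus was found in 4 of the 9 promoters (Ccl7, Cxcl1, Cxcl2 and Cxcl10), against 7.51% of 33469 promoters of the same length. The interferon element core was found in 1 of 9 against 3.92%, TGANTCA in 2 of 9 against 7.33%, and TATAAA in 5 of 9 against 14.2%. Of the 33 promoters matched for the other chemokine genes, 5 held the NF-kappaB consensus, namely those of Ccl9, Ccl20, Ccr3, Cxcl6 and Cxcl11, which were named because they held it. The motif was thus present both where a gene was higher at 50 µg/ml (Ccl7, Cxcl1, Cxcl6, Cxcl10) and where it was not past the threshold (Ccl9, Ccl20, Ccr3, Cxcl2, Cxcl11). It was absent from the promoters of Ackr3, Cx3cl1 and Cxcl16, which were also higher at 50 µg/ml. Ccl2 and Ccr10 were higher too, but no promoter of either was matched. A match describes the letters and is no evidence of binding.

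Cxcl12 encodes the ligand of Cxcr4 and Ackr3. Its log2 ratios were -0.05, -0.02 and 0.11 in the vehicle, -0.19, 0.06 and -0.18 at 1 µg/ml, 0.10, 0.09 and -0.01 at 10 µg/ml and -0.03, 0.01 and 0.18 at 50 µg/ml. All neighbouring groups overlapped. The difference to the vehicle was -0.11 ± 0.08 at 1 µg/ml, 0.05 ± 0.08 at 10 µg/ml and 0.04 ± 0.08 at 50 µg/ml. Both receptors of this ligand are among the 10 genes.

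Ackr3, formerly Cxcr7, encodes an atypical receptor that takes up Cxcl12 and Cxcl11 and recruits arrestins without the usual G protein signal. Its log2 ratios were -0.11, -0.05 and -0.26 in the vehicle, 0.08, 0.05 and 0.26 at 1 µg/ml, -0.15, -0.26 and -0.30 at 10 µg/ml and 1.65, 1.41 and 1.42 at 50 µg/ml. The arrays at 50 µg/ml lay far above the rest. Those at 1 µg/ml lay just above the vehicle without overlap, and those at 10 µg/ml overlapped with the vehicle. The difference to the vehicle was 0.27 ± 0.08 at 1 µg/ml, -0.09 ± 0.08 at 10 µg/ml and 1.63 ± 0.08 at 50 µg/ml, where the ratio was 3.11. Against 1 µg/ml, the 10 µg/ml group was lower by a difference of -0.37 ± 0.08. The promoter of Ackr3 (chr9:98247104-98247403 on the plus strand) is shown because Ackr3 had the largest difference of the 10 genes at 50 µg/ml. Of the 4 motifs it held TATAAA alone, in capitals, at -54 to -49.
Ackr3: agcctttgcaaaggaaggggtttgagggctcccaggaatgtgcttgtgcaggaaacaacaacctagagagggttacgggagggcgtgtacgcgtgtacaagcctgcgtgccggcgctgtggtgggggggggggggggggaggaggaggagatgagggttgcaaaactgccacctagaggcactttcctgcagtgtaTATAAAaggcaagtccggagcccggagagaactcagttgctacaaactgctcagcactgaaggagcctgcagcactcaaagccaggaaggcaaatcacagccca

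Cxcr4 encodes the signalling receptor of Cxcl12. Its log2 ratios were 0.27, 0.04 and 0.01 in the vehicle, -0.19, -0.31 and -0.56 at 1 µg/ml, -0.01, 0.03 and -0.13 at 10 µg/ml and 0.01, -0.07 and 0.05 at 50 µg/ml. The 1 µg/ml arrays lay below all others, whereas the remaining 3 groups overlapped. The difference to the vehicle was -0.46 ± 0.09 at 1 µg/ml, -0.14 ± 0.09 at 10 µg/ml and -0.11 ± 0.09 at 50 µg/ml. Cxcr4 at 1 µg/ml was no longer past the threshold without vehicle replicate 1 (-0.38) or without 1 µg/ml replicate 3 (-0.36). Endothelial cells and leukocytes are known to express Cxcr4. At 1 µg/ml 0 of 10 endothelial markers were higher and 3 lower, with a median difference of -0.24, and those that fell were the cadherin Cdh5, the transcription factor Sox18 and the receptor Tie1, the last named after its value was seen. Of 18 macrophage markers 0 were higher and 3 lower, with a median difference of -0.26. Over all genes 2.51% were higher and 1.74% lower at this dose. At 50 µg/ml, where Cxcr4 stood at -0.11 ± 0.09, 5 of the 10 endothelial markers were higher and 1 lower (median difference 0.25). Of the macrophage markers 0 were higher and 16 lower at that dose (-1.10), beside 8.75% and 8.84% of all genes. The part of these cells in the Cxcr4 values was not tested.

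Cx3cl1 encodes fractalkine, a ligand tethered to the membrane and released by proteases, and Cx3cr1 is its receptor on monocytes and tissue macrophages. Cx3cl1 had log2 ratios of -0.25, -0.20 and -0.04 in the vehicle, 0.04, 0.12 and -0.13 at 1 µg/ml, -0.01, 0.01 and -0.21 at 10 µg/ml and 0.16, 0.20 and 0.59 at 50 µg/ml. The 50 µg/ml arrays lay above all others, with replicate 3 well above the remaining 2. Its difference to the vehicle was 0.18 ± 0.11 at 1 µg/ml, 0.10 ± 0.11 at 10 µg/ml and 0.48 ± 0.11 at 50 µg/ml.

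Cx3cr1 had log2 ratios of 0.23, 0.37 and 0.11 in the vehicle, 0.61, 0.35 and 0.25 at 1 µg/ml, -0.24, -0.27 and -0.11 at 10 µg/ml and -0.51, -0.68 and -0.61 at 50 µg/ml. It was lowest at 50 µg/ml, next lowest at 10 µg/ml, and overlapped between the vehicle and 1 µg/ml. Its difference to the vehicle was 0.17 ± 0.09 at 1 µg/ml, -0.44 ± 0.09 at 10 µg/ml and -0.84 ± 0.09 at 50 µg/ml. At 10 µg/ml it was -0.41 without the array that stood apart. The ligand and its receptor thus had opposite signs at 50 µg/ml.

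Macrophage markers moved with Cx3cr1 at 50 µg/ml. The median of the 18 markers lay between -0.97 and -0.87 on the 50 µg/ml arrays, against 0.16 to 0.23 on the vehicle arrays. The lysozyme Lyz2, the growth factor receptor Csf1r and the mannose receptor Mrc1 fell by 2.32 ± 0.13, 1.78 ± 0.09 and 1.65 ± 0.13 (limma adjusted p = 1.67e-07, 1.33e-07 and 2.97e-06). At 10 µg/ml the marker median lay between -0.02 and 0.22, and 0 of the 18 markers passed, while the 3 Cx3cr1 values were below each vehicle value. At 1 µg/ml 0 of the 18 markers were higher and 3 lower (median difference -0.26), beside 2.51% and 1.74% of all genes. The Cx3cr1 difference had the opposite sign at that dose, 0.17 ± 0.09. In whole cultures, fewer cells of a type and less RNA per cell cannot be told apart. The part of macrophage markers in the Cx3cr1 value was not tested.

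**Figure D3:**
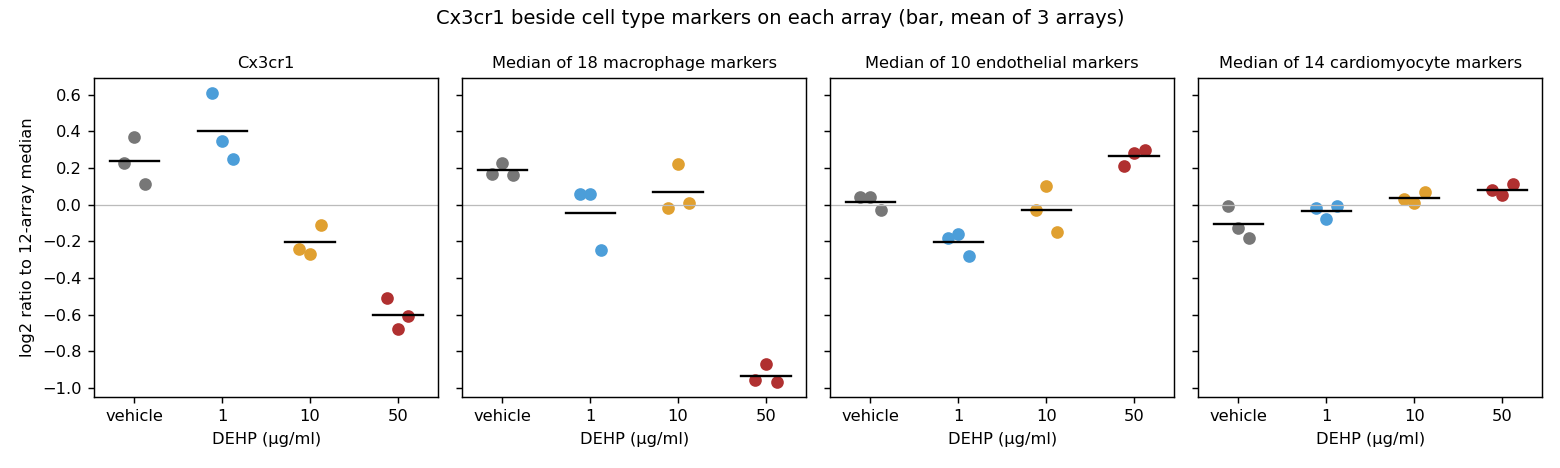
Log2 ratio to the median of the 12 arrays (vertical axis) of Cx3cr1, and the median over 18 macrophage, 10 endothelial and 14 cardiomyocyte markers, on each array by DEHP dose in µg/ml (horizontal axis); bars are means of 3 arrays. The macrophage median lies between -0.97 and -0.87 at 50 µg/ml, where Cx3cr1 lies between -0.68 and -0.51, and at 10 µg/ml Cx3cr1 is below the vehicle while the macrophage median is between -0.02 and 0.22. At 1 µg/ml Cx3cr1 lies between 0.25 and 0.61 and the macrophage median between -0.25 and 0.06.

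Among the 43 other chemokine genes, 3 rose and 4 fell at 50 µg/ml (limma, adjusted p under 0.05), where 8.75% and 8.84% of all genes did, and the median difference was 0.05. The rises were those of Cxcl6, described above, of Cxcl16 and of the skin and gut homing receptor Ccr10. Cxcl16, a membrane-tethered ligand of Cxcr6, had log2 ratios of 0.52, 0.46 and 0.58 at 50 µg/ml, against -0.10, 0.07 and 0.03 in the vehicle, with no overlap. Cxcl16 rose by 0.52 ± 0.06 (adjusted p = 5.74e-05), with adjusted p of 1.33e-05 to 0.000934 over the alternatives. Ccr10 rose by 0.18 ± 0.05 (adjusted p = 0.0344) and missed the threshold under several alternatives.

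The falls at 50 µg/ml were those of Ccl12, Ccl4, Ccr1 and Ccr2. Ccr2, the receptor of Ccl2 and Ccl7 on monocytes, had log2 ratios of -0.16, -0.21 and -0.03 at 50 µg/ml, against 0.19, -0.01 and 0.31 in the vehicle, and fell by 0.29 ± 0.07 (limma adjusted p = 0.0148). The groups of Ccr2 did not overlap, though vehicle replicate 2 came close to the treated arrays. Ccr1, a receptor of several CC ligands, fell by 0.40 ± 0.10 (adjusted p = 0.0137), and Ccl4, one of those ligands, fell by 0.33 ± 0.07 (adjusted p = 0.0086). Monocytes and macrophages are known to express these genes, and 16 of 18 macrophage markers were lower at this dose. Their part in these values was not tested. Without vehicle replicate 1 or vehicle replicate 3, 4 of the 43 genes passed in place of 7.

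Of the 43 genes at 1 µg/ml, 0 rose and 4 fell, where 2.51% and 1.74% of all genes did, and the median difference was -0.06. Besides Ccl12, these were Pf4 (-0.53 ± 0.13, limma adjusted p = 0.0435), Ccl4 (-0.38 ± 0.07, adjusted p = 0.0167) and Ccr1 (-0.39 ± 0.10, adjusted p = 0.0478). Pf4 had log2 ratios of -0.30, -0.22 and -0.50 at 1 µg/ml, against 0.05, 0.38 and 0.16 in the vehicle, without overlap. With vehicle replicates 1, 2 and 3 left out in turn, 1, 2 and 1 of the 43 genes passed. With 1 µg/ml replicates 1, 2 and 3 left out, 2, 1 and 1 passed. The count was 2 without 50 µg/ml replicate 3 and 9 without 10 µg/ml replicate 2, so it depended on single arrays. At 10 µg/ml 0 of the 43 passed under limma, with 5 at an unadjusted p under 0.05, where 6.28% of all genes were.

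**Figure D4:**
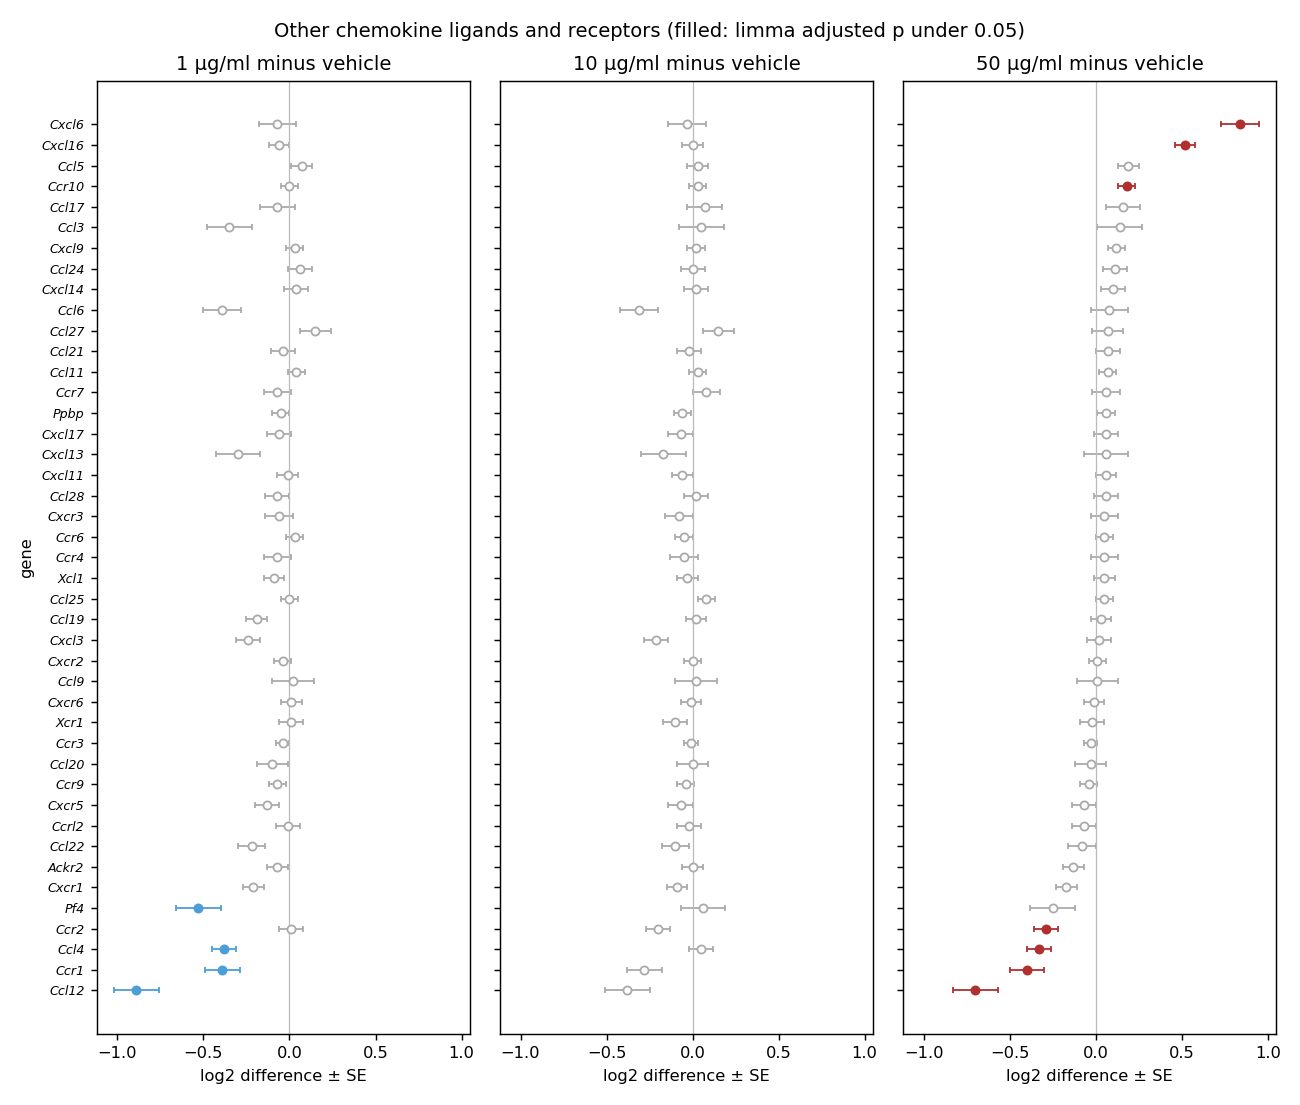
Log2 difference to the vehicle with its SE (horizontal axis) for 43 other chemokine ligands and receptors (vertical axis, ordered by the difference at 50 µg/ml) at 1, 10 and 50 µg/ml; filled points passed limma's adjusted p of 0.05. At 50 µg/ml Cxcl6 (0.84) and Cxcl16 (0.52) lie furthest to the right and Ccl12 (-0.70) furthest to the left, and 0 points are filled at 10 µg/ml.

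Doses were also set against each other. At 50 µg/ml relative to 10 µg/ml, 6 of the 10 chosen genes were higher and 1 lower, where 7.75% and 6.85% of all genes were. The differences were 1.73 ± 0.08 for Ackr3, 1.41 ± 0.15 for Cxcl1, 0.88 ± 0.07 for Ccl2, 0.80 ± 0.13 for Cxcl10, 0.61 ± 0.10 for Ccl7, 0.39 ± 0.11 for Cx3cl1 and -0.39 ± 0.09 for Cx3cr1. Cx3cl1 missed the threshold without 10 µg/ml replicate 1 or 3 or without 50 µg/ml replicate 3, and, like Cx3cr1, after repeated quantile normalization. Cx3cl1 also missed it when the other groups were left out of the model. Of the 43 other genes 4 rose, namely Cxcl6 (0.87), Cxcl16 (0.52), Ccl6 (0.39) and Cxcl3 (0.23), and 1 fell, Ccl4 (-0.38). Without 10 µg/ml replicate 1 or 3, or without 50 µg/ml replicate 3, 3 of the 43 passed in place of 5.

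Upstream of the chemokines stand cytokines, their receptors and the NF-kappaB and interferon factors. Of 46 such genes 40 were measured, and 14 rose and 2 fell at 50 µg/ml under limma (median difference 0.11), where 8.75% and 8.84% of all genes did. Nfkbia and Nfkbib, inhibitors of NF-kappaB that are themselves its targets or partners, rose by 0.79 ± 0.05 and 0.43 ± 0.06 (adjusted p = 1.12e-06 and 0.000454). The tumour necrosis factor receptor Tnfrsf1b rose by 0.48 ± 0.06 and the transcription factor Cebpb by 0.41 ± 0.06 (adjusted p = 0.000102 and 0.000254). The cytokine Il18 fell by 0.99 ± 0.10 (adjusted p = 2.29e-05) and the interleukin 1 receptor subunit Il1rap fell by 0.32 ± 0.07 (adjusted p = 0.0082). Of 18 macrophage markers 16 were lower at 50 µg/ml (median -1.10) and 3 at 1 µg/ml (median -0.26). Their part in the falls of this list was not tested. In the 1 µg/ml group 2 of the 40 genes rose and 2 fell, where 2.51% and 1.74% of all genes did. The cytokines Tnf and Il1b fell by 0.50 ± 0.09 and 0.30 ± 0.07, while Nfkbia and Zfp36, which destabilises cytokine mRNAs, rose by 0.35 ± 0.05 and 0.33 ± 0.07 (adjusted p = 0.0134, 0.0344, 0.00596 and 0.0271). Tnf (-0.25 ± 0.09) and Il1b (-0.18 ± 0.07) kept their sign at 50 µg/ml but did not pass. Set against 1 µg/ml, the 50 µg/ml group did not pass for either (0.25 ± 0.09 and 0.12 ± 0.07, limma adjusted p = 0.0649 and 0.236). Il18 (0.03 ± 0.10) and Il1rap (0.11 ± 0.07) did not pass at 1 µg/ml. Both were lower at 50 than at 1 µg/ml (-1.03 ± 0.10 and -0.43 ± 0.07, limma adjusted p = 2.04e-05 and 0.00126).

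Below the receptors, 49 of 54 genes of G protein coupling, migration and ligand processing were measured. At 50 µg/ml 6 rose and 12 fell under limma (median difference -0.04), where 8.75% and 8.84% of all genes did. The 4 genes with the largest falls, the G protein regulator Rgs1, the exchange factor Vav1, the GTPase Rac2 and its exchange factor Dock2, are known from leukocytes and fell by 1.38 ± 0.15, 0.85 ± 0.08, 0.67 ± 0.11 and 0.57 ± 0.08 (adjusted p = 4.02e-05, 2.21e-05, 0.000789 and 0.000285). Macrophage markers, at a median of -1.10, moved with them, and their part was not tested. The migration adaptor Elmo1 rose by 0.46 ± 0.07, the Gi subunit Gnai1 by 0.45 ± 0.11, and the metalloproteinases Mmp14 and Mmp9 by 0.44 ± 0.05 and 0.32 ± 0.10 (limma adjusted p = 0.000502, 0.0116, 8.14e-05 and 0.0438). In the 1 µg/ml group 0 rose and 4 fell, where 2.51% and 1.74% of all genes did. Among them were Mmp9, which fell by 0.51 ± 0.10, and the kinase subunit Pik3cb, which fell by 0.34 ± 0.08 (limma adjusted p = 0.0161 and 0.0382).

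The genes whose log2 ratios were most like those of each chosen gene over the 12 arrays were ranked by Pearson's r, as a description without a test. The arrays share their normalization, and the 50 µg/ml group lies apart, so a high r can rest on that group alone. Ackr3 was most like the surface glycoprotein gene Cd24 and the hexosamine enzyme gene Gfpt2 (r = 0.98 for both), whose means at 50 µg/ml were 1.38 and 1.10. Cxcl1 was most like the transcription factor Tbx3 and the opioid precursor Penk (0.97 for both), and Cxcl10 most like Tpcn1 and Spon1 (0.96 for both). Ccl2 was most like Bok (0.97) and the complement protease C1r (0.96), and Ccl7 most like Vax2 (0.96) and Wbp1l (0.94), all 4 lowest at 1 µg/ml and highest at 50 µg/ml. Cx3cr1 was most like the mitotic kinase Aurka (0.97) and Dpysl2 (0.96), and Cx3cl1 most like Ifitm3 and the macrophage growth factor Csf1 (0.94 for both). Cxcr4 was most like Prss53 (0.92) and G4 (0.91), Cxcl12 most like Nfia (0.91) and Tulp4 (0.89), and Cxcl2 most like Spata31f3 (0.88) and Atp11a (0.86).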

How the data were processed

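Per the submitters' processing notes, RMA, a robust multi-array average, was applied to the Affymetrix arrays, but the sources used here give neither its version nor the genome build. The values the authors deposited are linear ratios of each array to the log-scale median of its probe set over the 12 arrays, which was found from the values, whose log2 mid-value was 0 in every probe set. They were converted to log2. Symbols came from GEO's platform annotation, in which 15097 of 27342 probe sets carried 1 symbol. A gene with several probe sets (499 of 14324) was given their mean. The main model, fitted in R 4.3.3 with limma 3.58.1, held the 4 group means of the 12 arrays and no covariate (8 residual degrees of freedom), with empirical Bayes moderation, two-sided tests and Benjamini-Hochberg adjustment over all genes. The script was tested on simulated data. With 3 arrays on each side, 0.1 is the smallest p of an exact permutation test. The number of arrays limits the precision. Ratios carry no level, so no filter on dim probe sets was possible.

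The members and all gene lists were chosen with earlier results of these data known. Genes were named by rule: the 10 members, other chemokine genes that passed at any dose, at most 4 rises and 4 falls a pathway list at 50 µg/ml and 2 and 2 at 1 µg/ml, up to 3 of a marker list, and 2 likeness genes a member. Outside this rule, and with their values seen, chromosomal neighbours of members, receptors of members, genes that differed between 50 and 10 µg/ml, promoters holding a motif and Tie1 were also named. Promoters came from RefSeq tables (GRCr8), which matched 9 of the 10 genes, and were aligned with Biopython 1.88. Same-numbered arrays were not paired in the main model. Of 18 correlations of their deviations 6 exceeded 0.1, and differently numbered arrays reached 0.494. With 3 arrays a group these values cannot settle whether the arrays were paired.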

Additional observations from a re-analysis of the deposited data

How the results depend on the processing

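The 30 differences of the 10 genes to the vehicle were recomputed under each alternative (600 values). Of these, 592 moved by less than 1 SD between arrays, 8 moved by more, and 0 that had passed the threshold changed sign. All 8 arose when quantile normalization was applied again, which forces the arrays to 1 spread although their log2 SDs ran from 0.0869 to 0.199. Besides the values given for Ccl2, Ccl7, Cxcl1 and Cxcl10, the 50 µg/ml differences then were 1.13 for Ackr3 and -0.71 for Cx3cr1. Of the 43 other genes, 7 passed at 50 µg/ml, with 4 to 9 when arrays were left out in turn. At 1 µg/ml 4 passed, with 1 to 9 when arrays were left out, 10 when the other groups were left out of the model and 10 with array weights. Between 50 and 10 µg/ml 5 passed, with 3 to 6 when arrays were left out, 3 after repeated quantile normalization, 8 with array weights and 3 when the other groups were left out of the model. With the replicate block, 7, 6, 0 and 6 passed at 50, 1 and 10 µg/ml and between 50 and 10 µg/ml. Correlations of same-numbered arrays ran from -0.233 to 0.431. At 10 µg/ml array weights brought Ccl2 and Cx3cr1 past the threshold. Ackr3 passed as higher at 1 µg/ml with array weights and when the other groups were left out of the model. Over all genes, array weights gave 90 calls at 10 µg/ml and a repeated quantile normalization 15, against 0. At 1 µg/ml they numbered 608, with 176 to 1282 when arrays were left out, 1661 without the other groups in the model, 1772 with array weights and 1139 after repeated quantile normalization. The cause was not tested. A pseudocount was not run, since no ratio is 0.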
